A study of Mus musculus with 30 samples.

Results

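The clustered histone genes encode the linker histone H1 and the core histones H2A, H2B, H3 and H4, and lie side by side in clusters named Hist1 to Hist4. They were chosen as the protein-coding genes of the GENCODE M21 annotation whose symbols start with Hist1h, Hist2h, Hist3h or Hist4h. The annotation held 67 such genes, and 65 were among the 48820 genes of the table used. Of these 65, 6 encoded H1, 18 H2A, 16 H2B, 12 H3 and 13 H4. Hist1h2bm and Hist1h2bh were not analysed here. By cluster, 52 of the 65 belonged to Hist1 on chromosome 13 (GRCm38, 21715763 to 23934851), 10 to Hist2 on chromosome 3 (96219865 to 96270132), 2 to Hist3 on chromosome 11 (58948920 to 58956830) and 1, Hist4h4, stood alone on chromosome 6 (136801553 to 136804415).

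RNA was measured by sequencing of whole hearts from untreated wild-type (WT) mice in 30 libraries, 3 for each of 10 ages. Sampling covered embryonic days 10.5, 12.5, 14.5, 16.5 and 18.5 (E10.5 to E18.5), postnatal day 1 (P1) and postnatal weeks 1, 2, 4 and 8 (1W to 8W). The labels name no strain or sex and do not state that each library had its own animal, so the p-values reflect the spread among the libraries, which may be technical. Library totals ranged from 23164941 to 50519457 counts. All 6 cardiomyocyte markers examined were above 0 in every library, and their summed level was 8220 to 9255 normalised read counts (CPM, counts scaled to library size and then between libraries by the trimmed mean of M-values) at E10.5 and 102032 to 107518 CPM at 8W.

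Histone proteins package DNA into nucleosomes, and a dividing cell must supply new ones as it copies its genome in S phase. The mRNAs of most clustered histone genes are made in S phase and are not polyadenylated. They end just past a short stem-loop that the stem-loop binding protein Slbp holds through processing, translation and decay. Genes outside the clusters, such as H1f0, H3f3a and H3f3b, encode replacement histones from ordinary polyadenylated mRNAs in dividing and resting cells alike. Some clustered genes also give polyadenylated transcripts in differentiated cells. In the heart, muscle cells divide before birth and for a short time after it, and most of them then leave the cell cycle.

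The libraries were made from total RNA with oligo-T beads, which take up poly(A) RNA, so transcripts ending at the stem-loop are carried over rather than selected. How far their counts follow the RNA without poly(A) held by each library was not tested, and levels were also related to Rn7sk, an abundant small nuclear RNA without poly(A) that restrains transcription elongation. In bulk tissue, fewer cells of a type and less RNA per cell cannot be told apart.

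The stem-loop is shown first because it decides how such an mRNA ends. A 16-base stem-loop (GG, 3 pyrimidines, TTNTNA, 3 paired purines, CC) was searched on the transcript strand past the coding sequence of the annotated transcripts and found in 46 of the 67 genes. It began 25 to 62 bases after the last sense codon and came in 8 versions. The other 21 genes held no match in their annotated transcripts, many of which end close to the stop codon. Each version is given below in 26 bases from the member with the highest level per kilobase, on the DNA letters of the transcript from GENCODE M21 on GRCm38, with the stem-loop in capitals. The 26 genes of the first version span H1, H2A, H2B and H3, and the 7 of the second all encode H4.
Hist2h2aa2 (26 genes; minus strand, chr3:96239779-96239804): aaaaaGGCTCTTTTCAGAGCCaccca
Hist1h4h (7 genes; plus strand, chr13:23531453-23531478): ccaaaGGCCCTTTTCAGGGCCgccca
Hist1h2bb (6 genes; plus strand, chr13:23747198-23747223): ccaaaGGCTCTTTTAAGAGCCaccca
Hist1h4b (2 genes; plus strand, chr13:23757361-23757386): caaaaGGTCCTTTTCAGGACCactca
Hist2h4 (2 genes; minus strand, chr3:96262934-96262959): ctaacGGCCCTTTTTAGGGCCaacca
Hist1h4a (1 gene; minus strand, chr13:23760795-23760820): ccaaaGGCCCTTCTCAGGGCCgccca
Hist1h3g (1 gene; plus strand, chr13:23535884-23535909): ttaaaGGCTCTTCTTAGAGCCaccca
Hist2h2ac (1 gene; minus strand, chr3:96220413-96220438): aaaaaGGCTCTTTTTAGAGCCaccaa

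A member was counted as having an annotated poly(A)-type end where a transcript ran more than 100 bases past the stem-loop or held an intron. Of the 65 genes, 26 had such an end and 39 did not. The annotated transcript of Hist1h1c, for example, ran 840 bases past its stem-loop. The label rests on the annotation alone, since the files hold counts per gene and not per transcript end.

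Promoters are shown because members of a class share motifs there. RefSeq promoter windows (GRCm38.p6) were matched for 62 of the 67 genes, and the 250 bases before the start site were searched on both strands. CCAAT was found in 51 of 62 (82.3%), against 33.85% of all 32851 promoters. It was in all 6 H1, all 18 H2A and all 16 H2B promoters, in 8 of 10 H3 promoters and in 3 of 12 H4 promoters. TATAAA was found in 29 (46.8%, against 12.37%). The octamer ATTTGCAT was found in 13 (21.0%, against 1.6%), of which 7 were H2A and 6 H2B genes. The H1 box AAACACA was found in 9 (14.5%, against 6.25%), including 5 of the 6 H1 genes. No 2 of these motifs contain one another, and a match describes letters, not a bound site. The last 120 bases before the start are given for a pair of H1 genes and an H2B gene, 5′ to 3′ on the gene's strand, with matches to any of the 4 motifs on either strand in capitals.
Hist1h1c (H1; plus strand, chr13:23738687-23738806): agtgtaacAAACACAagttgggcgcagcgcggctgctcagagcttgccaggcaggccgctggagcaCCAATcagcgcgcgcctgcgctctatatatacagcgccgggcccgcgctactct
Hist1h1b (H1; minus strand, chr13:21780626-21780745): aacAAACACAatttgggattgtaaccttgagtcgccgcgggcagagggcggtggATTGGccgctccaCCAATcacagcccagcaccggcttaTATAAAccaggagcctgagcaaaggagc
Hist1h2bb (H2B; plus strand, chr13:23746614-23746733): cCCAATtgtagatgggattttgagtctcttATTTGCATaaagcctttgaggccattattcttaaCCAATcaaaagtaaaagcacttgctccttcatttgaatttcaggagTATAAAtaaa

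Counts of near-identical genes are uncertain. In 46 of the 65 genes most libraries held values that were not whole numbers, as estimated counts have where reads match several genes, and 17 had whole values in at least 90% of libraries. The latter include Hist1h1a, Hist1h1b, Hist1h1c, Hist1h1d, Hist1h1e, Hist2h2be and Hist4h4. Exons of 24 genes overlapped those of another gene, for 21 of them on the opposite strand, and the strand setting is not given in the sources used here. Hist1h2aa and Hist1h2ba, which are testis histones, had 0 and 1 counts over all 30 libraries, and the remaining 63 were tested.

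One library stood apart. E10.5 replicate 2 held the highest level of the 3 E10.5 libraries for all 63 tested genes. Their summed level was 17916 CPM there, against 6081.1 and 6345.5 CPM in replicates 1 and 3. Rn7sk moved with it, at 27907 CPM against 4572.9 and 4314.2 CPM, as did Rpph1, the RNA of ribonuclease P, at 6920 CPM against 1460 and 1120 CPM. Results that rest on that library are given with and without it.

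The summed level of the clustered histone genes was high in the embryo and lowest in the adult. By library it was 7211.1, 7936.5 and 7353.3 CPM at E12.5, 4615.2, 6212.1 and 5365 CPM at E14.5 and 7231.4, 8272.6 and 6485.6 CPM at E16.5. It was 4789.5, 4295.8 and 3971.5 CPM at E18.5 and 1901.1, 2650 and 2049.4 CPM at P1. The P1 libraries all lay below those of E18.5 and also below those of 1W, which were at 3031.2, 4113.8 and 3537.8 CPM. The levels at 2W were widely spread, at 1222.5, 1998.2 and 881 CPM, and at 8W they were 644, 620 and 592 CPM. As a share of all counts, the genes made up 1.24% ± 0.719 (SD, n = 3) at E10.5, or 0.823% (n = 2) without replicate 2, and 0.038% ± 0.00232 at 8W. Without replicate 2 the E10.5 sum was 6213.3 CPM, below all E12.5 and E16.5 libraries.

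Set against Rn7sk, the mean level was lower at each age than at the one before, except at 1W. There were 133, 64.2 and 147 histone counts per 100 Rn7sk counts in the 3 E10.5 libraries, so that replicate 2 was the lowest of them on this scale. Without it the E10.5 mean was 140.0 (n = 2). The mean was 62.0 ± 1.91 at E12.5, 50.5 ± 6.03 at E14.5, 41.2 ± 7.03 at E16.5 and 35.9 ± 3.35 at E18.5 (SD, n = 3). The lower mean at E16.5 came with a higher histone sum in CPM than at E14.5. Rn7sk was higher there too, at 17107 to 18900 CPM against 8088 to 12601 CPM at E14.5 and 11504 to 12527 CPM at E18.5. No pairwise test compared E16.5 with another age. After birth the mean was 17.3 ± 0.9 (P1), 27.2 ± 2.26 (1W), 12.7 ± 4.6 (2W), 6.44 ± 0.695 (4W) and 5.82 ± 0.7 (8W). The 3 P1 libraries (16.5 to 18.3) again lay below all E18.5 libraries (32.0 to 38.2) and all 1W libraries (25.8 to 29.8). Rn7sk itself passed no test of the 6 made with edgeR (across ages, adjusted p = 0.81), and at P1, 1W and 8W its libraries lay between 9840 and 15900 CPM. Without E10.5 replicate 2, however, Rn7sk was higher at E18.5 than at E10.5 (log2 change 1.45, adjusted p = 3.3e-08), so at E10.5 it is no level standard. With library size alone as the scale, Rn7sk was also lower at 8W than at P1 (-1.03, adjusted p = 0.027).

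Rn7sk and the histone sum also moved together among libraries of 1 age. Over the 30 libraries, deviations of the log2 levels from their age means had a Pearson correlation of 0.83 (Spearman 0.65), and over the 27 libraries without E10.5 it was 0.51 (0.53). For Rpph1 against Rn7sk the values were 0.94 and 0.85, and for Hist2h2be they were 0.45 and 0.04. They were 0.88 and 0.39 for Hist1h1c, 0.87 and 0.53 for the sum of genes with an annotated poly(A)-type end and 0.77 and 0.49 for the sum of the others. The points share library, depth and scaling, and the correlations are descriptions.

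**Figure D1:**
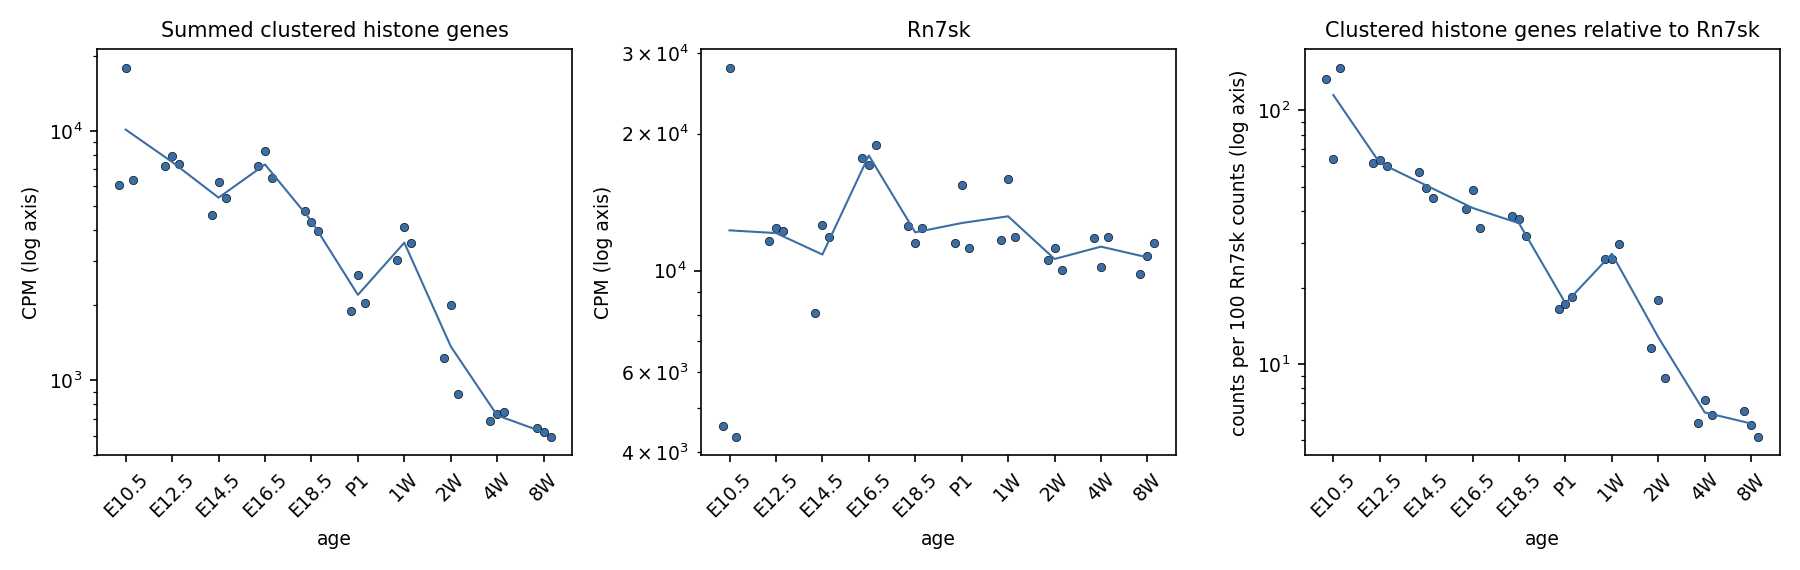
Summed level of the clustered histone genes in CPM, level of Rn7sk in CPM, and histone counts per 100 Rn7sk counts, by age, each on a log axis. Points are libraries in replicate order, and lines join the age means. E10.5 replicate 2 is the high point of the first and second panels and the low E10.5 point of the last, and the P1 libraries lie under E18.5 and 1W in the first and last panels.

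Across the 10 ages, 62 of the 63 tested genes changed in edgeR's quasi-likelihood test at an adjusted p of 0.05, where 93.6% of all 19280 genes tested did. Scaled to Rn7sk, 61 of the 63 did, where 83.9% of all genes were called. The mean was highest at E10.5 for 56 of the 65 genes, at E12.5 for 2, at E16.5 for 3, at E18.5 for 2 and at P1 for 1. That order rested on E10.5 replicate 2: without it the mean was highest at E10.5 for 11, at E12.5 for 35, at E16.5 for 15, at E18.5 for 2 and at P1 for 1. Of the 63 tested genes, 63 had a mean of at least 1 CPM at E10.5 and 48 at 8W. The 8W mean was a median 1.79% of the E10.5 mean over the 63. By class this was 1.94% for the 6 H1 genes, 1.73% for the 17 H2A genes, 1.79% for the 15 H2B genes, 1.48% for the 12 H3 genes and 4.02% for the 13 H4 genes. Without E10.5 replicate 2 the median was 3.01%, and by class 2.97% for H1, 2.72% for H2A, 2.9% for H2B, 2.23% for H3 and 8.26% for H4. Hist2h3c1, an H3 gene with values that were not whole in 50% of libraries, had 0 counts at 4W and 8W and was the gene not called (adjusted p = 0.054).

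**Figure D2:**
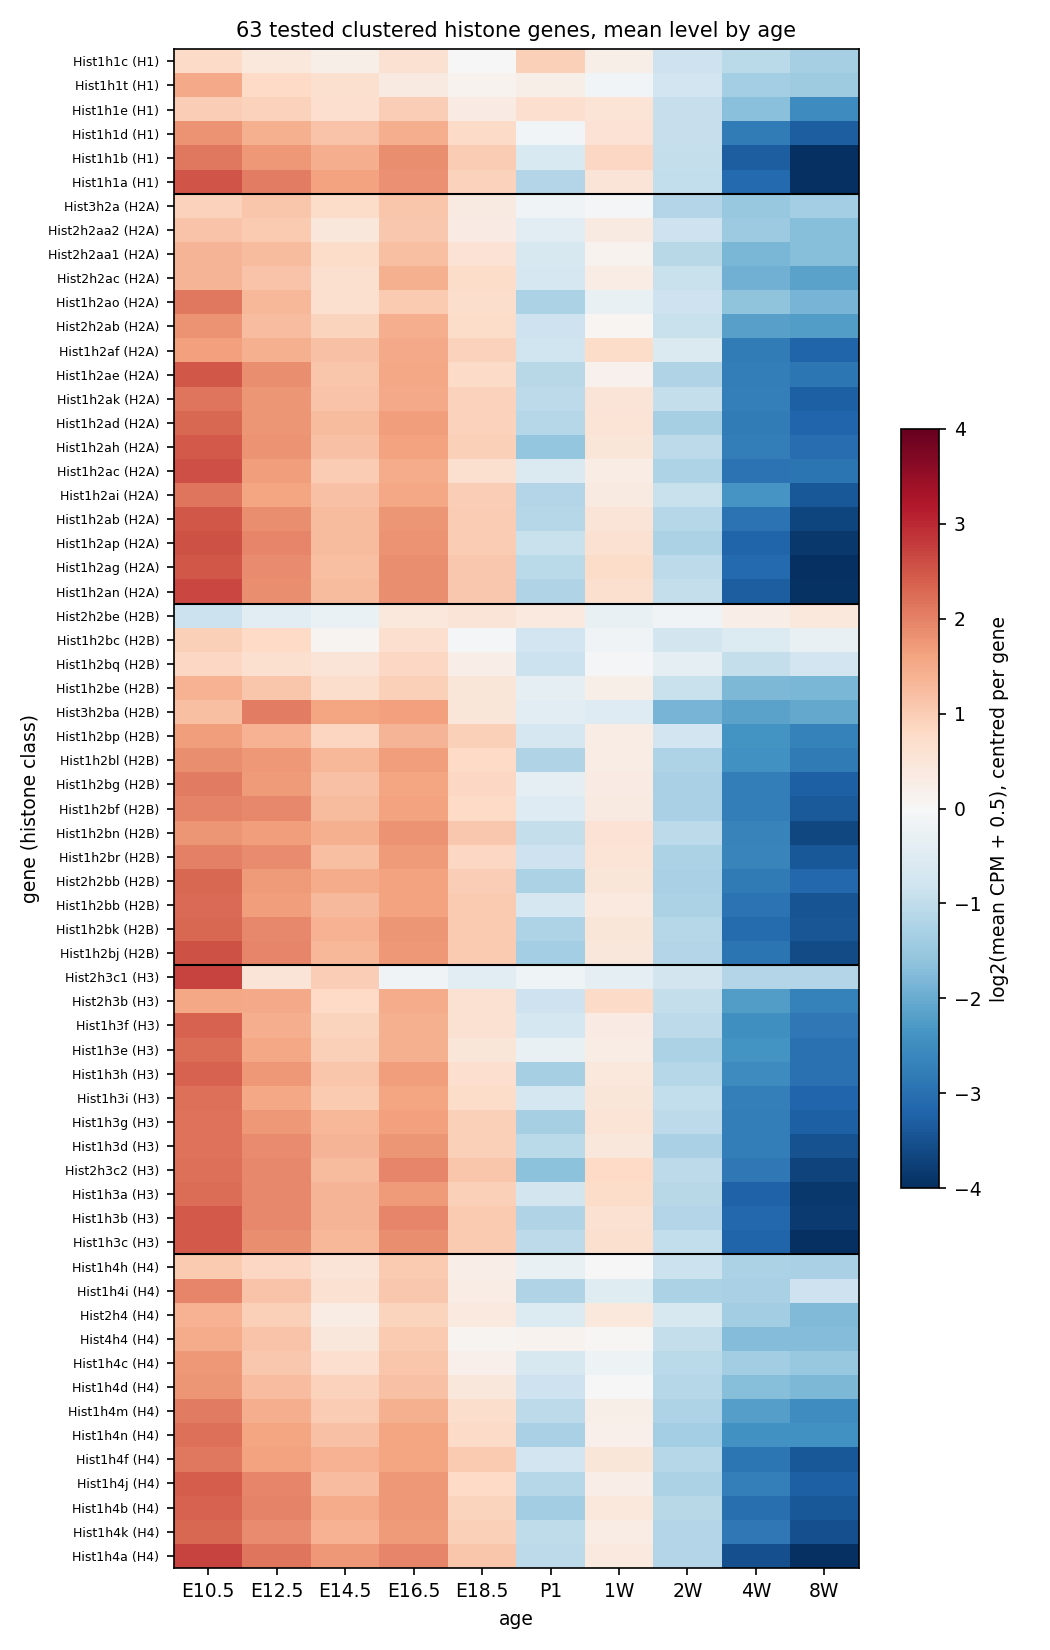
Mean level of each of the 63 tested clustered histone genes by age, as log2(mean CPM + 0.5) centred on the gene's own mean, grouped by class and ordered by the difference of 8W from E10.5. Colours are held at 4 above and below 0. Most rows run from red in the embryo to blue in the adult with a dip at P1, below both E18.5 and 1W, while Hist2h2be runs from blue at E10.5 to red at 8W.

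From E10.5 to E18.5, 55 genes fell and 1 rose among the 63, where 63.3% of all genes were called, 30.4% as lower and 32.9% as higher. The median log2 change of the histone genes was -1.26 and that of all genes 0.00. The largest falls without overlap between libraries were those of the H2A gene Hist1h2ac (log2 change -1.95 ± 0.34 SE) and of the H3 genes Hist1h3e (-1.74 ± 0.34) and Hist1h3f (-1.74 ± 0.37), with adjusted p-values of 4.3e-05, 0.00014 and 0.0003. The number called depended on E10.5 replicate 2. Without it 25 genes fell and 1 rose, where 59.9% of all genes were called, with a median of -0.57. The changes of the 3 genes were then -1.26, -1.03 and -1.02, still past the threshold, and Hist1h2ah (-1.13), Hist1h1t (-1.09), Hist1h1a (-1.07), Hist1h2ap (-1.06), Hist1h2ae (-1.04) and Hist1h3h (-1.04) had larger falls than Hist1h3e and Hist1h3f. Scaled to Rn7sk, which is no level standard at E10.5, 60 genes were lower and none higher, where 54.5% of all genes were called. The median was -1.73 against -0.94 for all genes, and no fit on this scale left out E10.5 replicate 2.

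The 1 gene that rose was Hist2h2be, an H2B gene of the Hist2 cluster whose counts were whole in every library. It stood at 4.36, 5.77 and 4.48 CPM at E10.5, at 13.9, 14 and 12 CPM at E18.5 and at 12.5, 14.9 and 10.6 CPM at 8W. All E18.5 libraries lay above all E10.5 libraries, and the change of 1.45 ± 0.13 (adjusted p = 1.9e-11) passed the test whichever library was left out. On the scale of Rn7sk it was 0.60 with an adjusted p of 0.19. From P1 to 8W the change was 0.05 ± 0.13 (adjusted p = 0.73), and the 8W mean was 261% of the E10.5 mean (287% without E10.5 replicate 2), the highest of the 63 genes.

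Between E18.5 and P1, 51 genes fell and 1 rose, where 38.8% of all genes were called, 19.0% as lower and 19.8% as higher. The median log2 change was -1.76, against -0.01 for all genes. In 57 of 63 genes all P1 libraries lay below all E18.5 libraries, and the share of all genes in which they did was not counted. Every tested class but H1 fell in most members. There were 16 falls among 17 H2A genes, 14 among 15 H2B genes, 10 among 12 H3 genes and 9 among 13 H4 genes, against 2 falls and 1 rise among 6 H1 genes. Scaled to Rn7sk, 47 genes were lower and none higher, where 3.91% of all genes were called.

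Hist2h3c2, an H3 gene of the Hist2 cluster, was at 106, 114 and 99.2 CPM at E18.5 and at 10.5, 14.8 and 19.9 CPM at P1. It fell by 2.82 ± 0.41 on the log2 scale (adjusted p = 1.1e-05) and passed the test whichever library was left out. The H2A gene Hist1h2ah was at 20.1, 18.3 and 17.2 CPM and then at 1.85, 3.72 and 3.15 CPM, a change of -2.67 ± 0.41 (adjusted p = 2.2e-05). Hist1h2ao, a lower H2A gene with at most 3.61 CPM at E18.5, changed by -3.13 ± 0.64 (adjusted p = 0.00038). Hist1h3b, the H3 gene highest per kilobase, was at 146, 145 and 130 CPM and then at 21.0, 36.0 and 31.0 CPM (-2.26 ± 0.45, adjusted p = 0.00038).

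The linker histones differed among themselves over the same step. Hist1h1c was at 291, 246 and 215 CPM at E18.5 and at 464, 576 and 397 CPM at P1, so that all P1 libraries were higher. It rose by 0.94 ± 0.28 on the log2 scale (adjusted p = 0.011). The call was kept in 28 of 30 fits that left out 1 library and lost without E18.5 replicate 3 (adjusted p = 0.054) or P1 replicate 2 (0.059). Scaled to Rn7sk the change was 0.87 with an adjusted p of 0.3. Hist1h1e, another widely used linker histone, was at 203, 180 and 165 CPM and then at 233, 245 and 220 CPM (0.35 ± 0.18, adjusted p = 0.14). Hist1h1b, at 129, 113 and 98.4 CPM and then 26.3, 40.5 and 40.5 CPM, fell by 1.67 ± 0.37 (adjusted p = 0.0012). Hist1h1a was at 61.9, 60.2 and 52.2 CPM and then at 8.57, 18.7 and 12.4 CPM, a fall of 2.13 ± 0.39 (adjusted p = 0.00017). H1 genes thus made up 16.9% ± 0.7 of the clustered histone counts at E18.5 and 38.2% ± 3.25 at P1, Hist1h1c alone 5.74% ± 0.33 and 21.8% ± 2.5 (SD, n = 3).

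**Figure D3:**
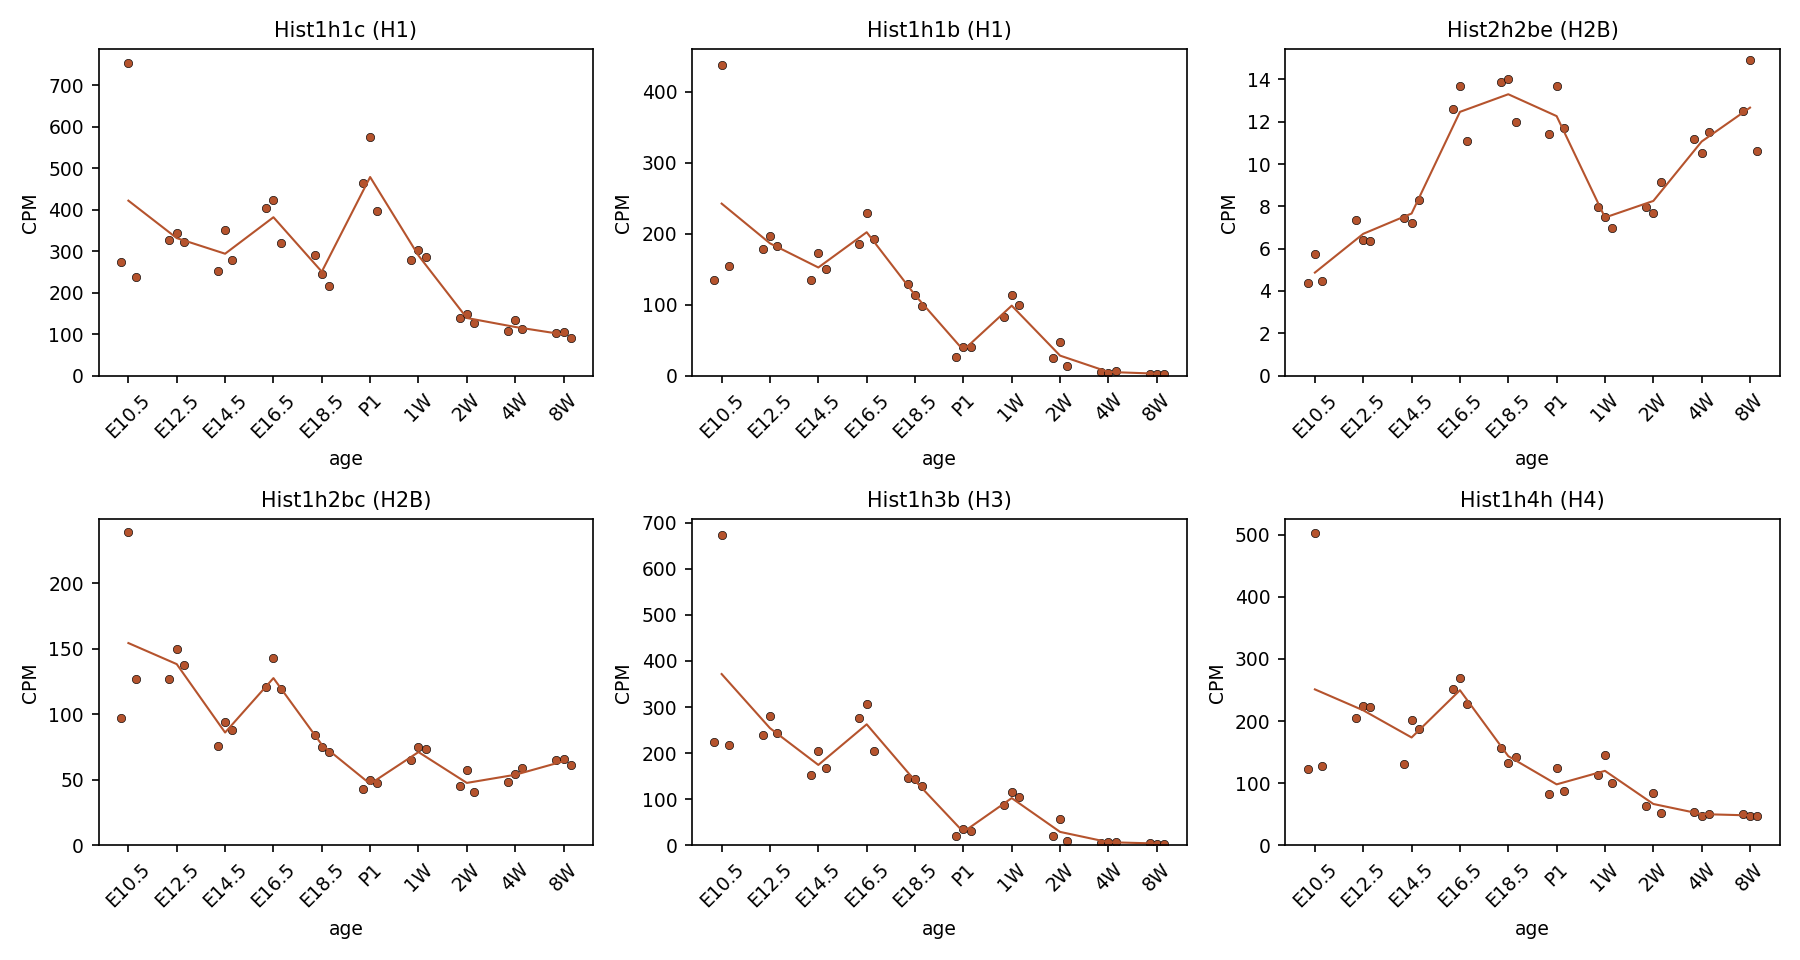
Level in CPM of 6 clustered histone genes by age. Points are libraries in replicate order, and lines join the age means. Hist1h1c is high at P1 (397 to 576 CPM) where Hist1h1b and Hist1h3b are low, and Hist2h2be is at its lowest at E10.5.

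From P1 to 1W, 43 genes rose and 2 fell, where 35.8% of all genes were called, 18.8% as higher and 17.0% as lower. The median log2 change was 1.38 against -0.01 for all genes. The 3 largest rises were those of Hist2h3c2 (2.5 ± 0.4, adjusted p = 5.3e-05), Hist1h2ah (2.20 ± 0.41, adjusted p = 0.00024) and the H3 gene Hist1h3g (2.07 ± 0.37, adjusted p = 0.00014). Hist2h3c2 reached 61.0, 99.5 and 95.6 CPM at 1W, above all P1 libraries, and its highest 1W library passed the lowest E18.5 library at 99.2 CPM. The 2 genes that fell were Hist1h1c, at 279, 303 and 287 CPM (-0.73 ± 0.28, adjusted p = 0.048), and Hist2h2be, at 7.97, 7.49 and 6.96 CPM (-0.71 ± 0.13, adjusted p = 4.1e-05). The call of Hist1h1c was kept in 4 of 30 fits that left out 1 library, with changes from -0.83 to -0.57, and that of Hist2h2be in all 30. Scaled to Rn7sk, 32 genes were higher and none lower, where 3.38% of all genes were called.

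The fall to P1 and the level at 1W are both read against the same 3 P1 libraries. The count at 1W was 30 without P1 replicate 1. P1 replicate 2 was the highest P1 library in 54 of the 60 genes with at least 1 CPM in a P1 library, and its Rn7sk was the highest too, at 15400 CPM against 11500 and 11200 CPM.

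From 1W to 2W, 54 genes fell and none rose, where 29.6% of all genes were called, 14.1% as lower and 15.5% as higher. The median log2 change was -1.56, against -0.01 for all genes. The largest falls were those of the H2B gene Hist3h2ba (-2.16 ± 0.41, adjusted p = 0.00021) and the H2A genes Hist1h2ad (-1.93 ± 0.40, adjusted p = 0.001) and Hist1h2ap (-1.90 ± 0.37, adjusted p = 0.00054). Hist1h2ap, which is high per kilobase among H2A genes, was at 111, 161 and 154 CPM at 1W and at 32.0, 65.4 and 16.6 CPM at 2W. The 2W libraries differed among themselves in 1 direction: replicate 2 was the highest in 57 and replicate 3 the lowest in 56 of 58 genes with at least 1 CPM in a 2W library. The count was 42 without 2W replicate 3, and scaled to Rn7sk 31 genes were lower, where 2.93% of all genes were called.

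From P1 to 8W, 56 genes fell and none rose, where 66.8% of all genes were called, 35.1% as lower and 31.8% as higher. The median log2 change was -2.62, against -0.10 for all genes. Scaled to Rn7sk, 53 genes were lower and none higher, where 33.5% of all genes were called. The largest falls were those of Hist1h1t, a linker histone of the testis that was at 1.12, 1.26 and 1.09 CPM at P1 and had 2 counts in all at 8W, too few for a fold (adjusted p = 6.1e-08), and of the H2A genes Hist1h2an (-3.93 ± 0.77, adjusted p = 0.00012) and Hist1h2ai (-3.82 ± 0.80, adjusted p = 0.00026). Hist1h1b fell by 3.71 ± 0.48 (adjusted p = 6.5e-07), to 2.87, 2.53 and 2.79 CPM. Hist1h1c fell by 2.27 ± 0.29 (adjusted p = 6.4e-07), to 102, 105 and 90.7 CPM, and took the largest share of clustered histone counts at 8W, 16% ± 0.82.

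Of the 7 genes not called from P1 to 8W, Hist1h2bc, an H2B gene, stood at 43.2, 50.3 and 47.4 CPM at P1 and at 65.5, 66.1 and 61.1 CPM at 8W. All 8W libraries were higher, with a change of 0.45 ± 0.21 and an adjusted p of 0.063. It held 10.4% ± 0.25 of the clustered histone counts at 8W (SD, n = 3) which was the next largest share there. Per kilobase of exon, the H4 gene Hist1h4h (103 CPM per kilobase) and the H2A gene Hist2h2aa2 (102) were the highest at 8W, ahead of Hist1h1c (63.7) and Hist1h2bc (55.6). Hist1h4h was at 123, 502 and 128 CPM at E10.5 and at 50.2, 46.9 and 48.0 CPM at 8W. At E10.5 the highest per kilobase was Hist1h2ap, with 1120 (808 without replicate 2), which stood at 12.1 at 8W.

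The annotated end went with the size of the change around birth. From E18.5 to P1, the median log2 change was -1.13 in the 26 tested genes with an annotated poly(A)-type end, of which 16 fell and 1 rose. It was -2.09 in the other 37, of which 35 fell and none rose. From P1 to 1W the medians were 0.76 and 1.63, with 8 and 35 rises. From E10.5 to E18.5 the medians were -1.22 and -1.28, or -0.55 and -0.59 without E10.5 replicate 2. Genes with such an end held 45.4% ± 0.423 of the clustered histone counts at E18.5 and 64.0% ± 2.74 at P1. They held 48.1% ± 1.06 at 1W, and 61.6% ± 0.448 at 8W (SD, n = 3). Much of the higher share at P1 lay in the linker genes Hist1h1c and Hist1h1e, which both have such an end. Hist1h1c held 5.74% at E18.5 and 21.8% at P1, and Hist1h1e 4.19% and 10.7%. The difference between the sets of genes was not tested. The rule could not place the end of genes in which no stem-loop was found and whose transcripts hold no intron, and 16 of the 37 were of this kind. Among genes with a stem-loop, the medians from E18.5 to P1 were -1.05 in 23 genes with a poly(A)-type end (13 fell and 1 rose) and -2.09 in 21 without (20 fell), a grouping chosen after seeing the data. Hist2h2be, which had the smallest change at P1 among the 37 (-0.12 ± 0.12, adjusted p = 0.5), is one of the 16, and its annotated transcript of 2620 bases has a poly(A) signal in its last 40 bases.

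**Figure D4:**
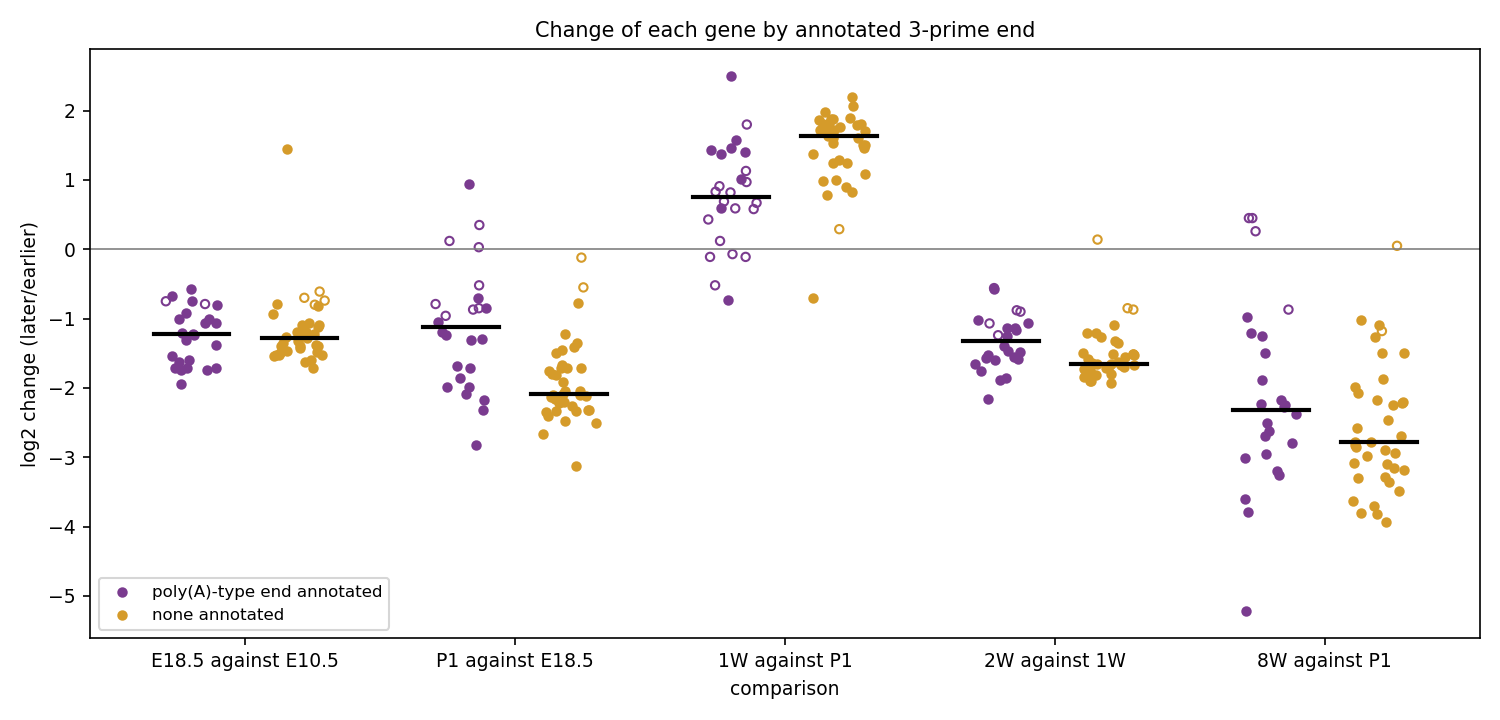
Log2 change of each tested gene in 5 comparisons of ages, by whether a poly(A)-type end is annotated. Filled points passed an adjusted p of 0.05, open points did not, and bars are medians over all genes of a set (Hist2h3c1, which had 0 counts in some groups, is in the median and not drawn). The sets lie together from E10.5 to E18.5 and apart at P1 and 1W, with medians of -1.13 and -2.09 and of 0.76 and 1.63.

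The genes were also grouped by motif and stem-loop version. From E18.5 to P1 the median log2 change was -1.84 in the 10 tested H2A and H2B genes with the octamer and -1.98 in the 20 without it. It was -2.09 in 11 H3 and H4 genes with CCAAT and -1.82 in 11 without. The 7 H4 genes with the stem-loop version of Hist1h4h had medians of -1.30 from E18.5 to P1 and -1.18 from P1 to 8W, and the 24 tested genes with the most common version had medians of -1.54 and -2.74. These are descriptions of the genes as grouped and carry no test.

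The shares of H1f0 and of H3f3a with H3f3b, replacement histones outside the clusters, were higher at 8W than at E10.5. H1f0, the linker histone of resting and differentiated cells, held 7.01% ± 2.77 of linker histone counts at E10.5 (8.61% without replicate 2). By E18.5 the share was 17.3% ± 0.692, a week after birth it was 17.7% ± 1.31, and at 8W it reached 39.0% ± 1.43. At 8W its libraries ranged from 38.0% to 40.6%, above every library before 2W, the highest of which was 20.5%. H1fx, another linker histone gene outside the clusters, held 0.162% at E10.5, 0.671% at E14.5 and 0.0235% at 8W. For Hist1h1c the share went from 27.9% ± 0.731 at E18.5 to 46.1% ± 3.01 at P1, then to 31.1% ± 1.14 at 1W, and ended with 44.5% ± 0.979 at 8W. H3f3a and H3f3b, which encode the replacement form of H3, together held 22.1% ± 7.74 of H3 counts at E10.5 (26.5% without replicate 2) and 29.7% ± 1.03 at E18.5. Their share was 70.7% ± 3.82 at P1, against 39.4% ± 4.79 at 1W and 84.5% ± 2.75 at 8W (SD, n = 3). For each of the 3 shares a permutation test of the F ratio over the 10 ages gave p = 1e-05, the smallest that 100000 resamples can give, also after adjustment over the 3. Per kilobase of exon, the H3 share at 8W was 55.6%, since the transcripts outside the clusters are longer. All 3 shares also depend on the selection with oligo-T beads where genes differ in poly(A).

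The rise of the H3 share at P1 had both sides. H3f3b was at 172, 161 and 149 CPM at E18.5 and at 307, 319 and 330 CPM at P1, a rise of 0.99 ± 0.07 on the log2 scale (adjusted p = 1.5e-12), and H3f3a rose by 0.37 ± 0.08 (adjusted p = 0.00065). Scaled to Rn7sk both changes had the same sign but missed the threshold, with adjusted p-values of 0.22 and 0.87. Of the 11 genes for replication-independent histones, 3 rose and 3 fell over this step, with a median of -0.14, where 38.8% of all genes were called. From P1 to 8W, 8 of them fell and none rose, with a median of -1.16, where 66.8% of all genes were called, 35.1% as lower. Scaled to Rn7sk 4 of them fell and none rose (median -0.93), where 33.5% of all genes were called. With both directions counted together, the number called was near the share of all genes on both scales. All the calls were falls, however, and before scaling to Rn7sk 8 falls among 11 genes stood against 35.1% of all genes. H1f0 itself fell by 1.17 ± 0.07 from P1 to 8W (adjusted p = 1.9e-15). Scaled to Rn7sk its change was -0.94 (adjusted p = 0.055). The clustered linker genes fell by more, with a median of -3.37.

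**Figure D5:**
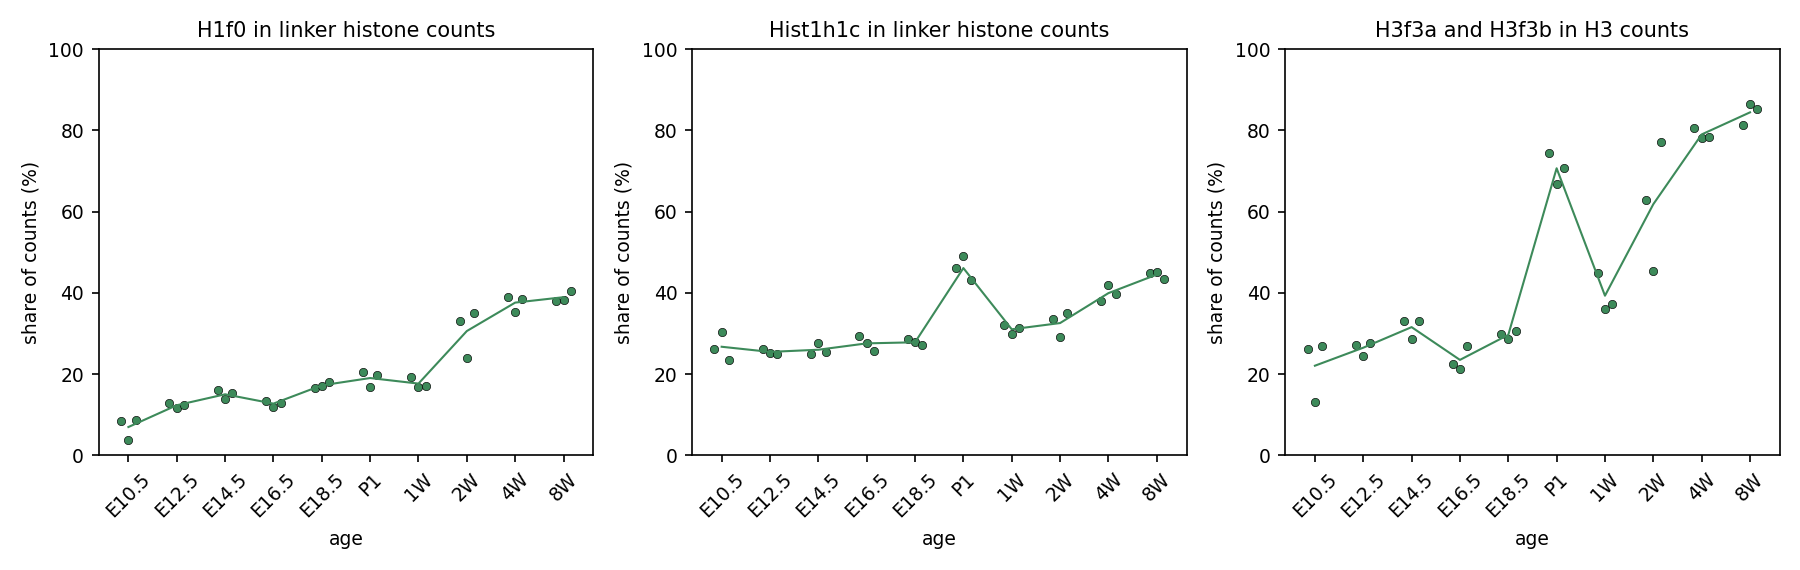
Share in percent of H1f0 and of Hist1h1c in linker histone counts, and of H3f3a and H3f3b in H3 counts, by age. Points are libraries in replicate order, and lines join the age means. The H1f0 share climbs late (39.0% at 8W), while the Hist1h1c and H3f3 shares step up at P1 (46.1% and 70.7%) and are lower again at 1W.

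Genes of DNA replication and S phase moved in the same direction as the clustered histone genes in each step. Of 23 such genes, 16 fell from E10.5 to E18.5 (median log2 change -0.80), 23 from E18.5 to P1 (-1.68), 17 from 1W to 2W (-0.87) and 18 from P1 to 8W (-1.32), and 22 rose from P1 to 1W (1.11). Of all genes, 30.4%, 19.0%, 14.1% and 35.1% fell in these steps and 18.8% rose in the last. Without E10.5 replicate 2, 14 fell from E10.5 to E18.5 (-0.71). None was called in the other direction in any of the 5 comparisons. Scaled to Rn7sk the calls were 23, 20, 1, 13 and 6 in the order given. On that scale 54.5%, 3.91%, 2.93%, 33.5% and 3.38% of all genes were called, so the 1 call from 1W to 2W is near the background. The 23 calls rest on Rn7sk at E10.5, where it is no level standard. Cdc6, which loads the replicative helicase, was at 19.9 ± 3.82 CPM at E18.5, 2.91 ± 1.8 CPM at P1 and 12.4 ± 0.743 CPM at 1W (SD, n = 3). Its log2 changes were -2.76 ± 0.29 (adjusted p = 1.2e-07) and 2.08 ± 0.29 (adjusted p = 7e-06). Ccne2, a cyclin of the entry into S phase, fell by 3.09 ± 0.29 at P1 (adjusted p = 2e-08).

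Among the genes that make and process histone mRNA, Slbp followed the same course. It was at 36.7, 33.1 and 36.3 CPM at E18.5, at 14.6, 13.3 and 15.7 CPM at P1 and at 26.2, 26.1 and 26.8 CPM at 1W, with no overlap at either step. It fell by 1.28 ± 0.09 (adjusted p = 4.3e-13) and rose by 0.86 ± 0.09 (adjusted p = 3.2e-09). Scaled to Rn7sk the changes were -1.31 (adjusted p = 0.03) and 0.80 (adjusted p = 0.37). Npat, the transcription coactivator of the clustered genes, changed by -0.11 ± 0.09 (adjusted p = 0.4) and -0.14 ± 0.09 (adjusted p = 0.27) over these steps. Slbp, Npat, H3f3a, Hist1h1e and Rmrp were chosen for naming after their values were seen. E2f1, an activator of S phase genes, fell by 2.21 ± 0.33 and rose by 1.65 ± 0.33 (adjusted p = 1.3e-05 and 0.00042). Earlier, from E10.5 to E18.5, where most clustered histone genes fell, it had the largest called rise of the list with all libraries included. In that step 4 of the 13 tested genes of the list rose and 6 fell (median -0.21), where 63.3% of all genes were called. Of the 13 genes of the list that were tested, 8 fell and none rose to P1 (median -0.68), 6 rose and none fell to 1W (0.22), and 5 rose and 4 fell from P1 to 8W (-0.01). Of all genes 38.8%, 35.8% and 66.8% were called in these steps, and the 9 of 13 from P1 to 8W are near the last of these. Upf1, which acts in histone mRNA decay, rose by 1.15 ± 0.09 over the last of these (adjusted p = 3e-13).

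Of 18 histone chaperones, 10 fell and none rose to P1 (median -0.33), and 8 rose and 3 fell to 1W (0.10), where 38.8% and 35.8% of all genes were called. Scaled to Rn7sk 2 fell and 2 rose over these steps, where 3.91% and 3.38% of all genes were called. Asf1b, a chaperone of H3 and H4 in dividing cells, fell by 2.14 ± 0.31 and rose by 1.36 ± 0.31 (adjusted p = 8.9e-06 and 0.0015). Chaf1b, a subunit of the assembly factor that works at replication forks, fell by 4.22 ± 0.35 from P1 to 8W (adjusted p = 7.4e-11). Daxx, which places replacement H3 away from forks, had a log2 change of 0.27 ± 0.12 to P1 (adjusted p = 0.059). From P1 to 1W it had the largest called fall of the 18 chaperones.

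The 7 tested RNAs without poly(A) other than histone mRNAs gave few calls. In edgeR's test none was called from E18.5 to P1, from P1 to 1W or from 1W to 2W (0 at an unadjusted p of 0.05 in each). Of all genes 38.8%, 35.8% and 29.6% were called in these steps. From E10.5 to E18.5 2 of the 7 fell and from P1 to 8W 1 rose, where 63.3% and 66.8% of all genes were called. Without E10.5 replicate 2, 5 of the 7 were higher at E18.5 than at E10.5 and none lower, where 59.9% of all genes were called. Rmrp, the RNA of ribonuclease MRP, was at 715, 589 and 616 CPM at E18.5 and at 489, 643 and 523 CPM at P1, and these overlapped.

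The genes outside the lists whose levels over the 10 age means were most like the histone sum were Rfc5 (Pearson r of log2 levels 0.996), Cdca4 (0.992), Traip (0.990), Cdca5 (0.989), Arhgef39 (0.989) and Cks2 (0.989). Rfc5, a subunit of the clamp loader of DNA replication, was at 40.4 CPM at E10.5 and 24.8 CPM at E18.5. After birth it stood at 15.9 CPM (P1), 19.0 CPM (1W) and 5.6 CPM (8W). The coefficients describe 10 means that share libraries and scaling, E10.5 replicate 2 included.

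Markers of other cells changed over the same ages. The summed level of 7 erythroid markers ranged from 894 to 1225 CPM at E10.5, from 14038 to 25563 CPM at E16.5, from 1756 to 4936 CPM at E18.5, from 2853 to 5452 CPM at P1 and from 1664 to 2086 CPM at 8W. At P1 2 of the 7 were higher than at E18.5 and none lower, where 19.8% of all genes were called higher and 19.0% lower. None of the 7 was called from P1 to 1W, where 35.8% of all genes were. Their sum was lower at 1W, however, from 2090 to 2527 CPM, with a median log2 change of -0.8. The 3 liver markers summed to 1.28 to 12.7 CPM at E18.5 and 0.429 to 39.4 CPM at P1. The 5 macrophage markers summed to 5.41 to 6.49 CPM at E10.5 and 258 to 286 CPM at 8W. The 5 fibroblast markers summed to 4807 to 5060 CPM at E18.5, 4606 to 6202 CPM at P1 and 8671 to 8981 CPM at 1W. Of these 5, 4 rose from P1 to 1W (median 0.67), where 18.8% of all genes rose. All 3 liver markers fell from P1 to 1W (median -5.36), where 17.0% of all genes fell. The 5 testis markers summed to 1.9 to 2.72 CPM at E10.5, 0.279 to 0.666 CPM at E18.5 and 0.604 to 1.05 CPM at 1W, with Prm1 and Tnp1 at 0 and Ddx4, Dazl and Sycp3 above 0 at these ages, and the 1 tested fell from E10.5 to E18.5 (-2.53). Their part in the changes of the histone genes was not tested.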

How the data were processed

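The 30 heart libraries are described by 1 table, in which the authors deposited expected counts for each gene, not scaled between samples. Values were not whole in 6.9% of cells of the table (tolerance 1e-06). Per the labels' protocols, poly(A) RNA was taken from Trizol-extracted total RNA with oligo-T beads. Named in the submitters' processing notes, with no role, are STAR 2.5.3a, fastp 0.18.0 and, as builds, mm10 and GRCm38. Not given in the sources used here are the strand setting, the tool used for counting and the release of the annotation.

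Values were rounded to whole counts, since the design had assumed counts. Genes kept by filterByExpr (19280, 63 of them clustered histone genes) were tested with edgeR 4.0.16 (R 4.3.3), using TMM scaling and a robust quasi-likelihood fit of 10 age means with 20 residual degrees of freedom. P-values were adjusted by Benjamini-Hochberg over all genes, with a threshold of 0.05. Each SE was obtained by dividing the absolute log2 change by the root of its F. The 3 shares were tested by permutation of the F ratio (100000 resamples). The pipeline was tested on simulated data. Library totals ranged from 23164941 to 50519457 counts.

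The members and gene lists were chosen with earlier results of these data known. Named genes were the 2 highest per kilobase in each class, the highest at 8W, the 3 largest called rises and falls without overlap between libraries in each comparison (higher mean of at least 1 CPM), the extremes of 8W against E10.5, list extremes, Rn7sk, Rpph1 and the 6 genes most alike in course. Alternatives were RLE factors, library size alone, scaling to Rn7sk, Rn7sk as covariate, other filters, a replicate block, DESeq2 1.42.0, fits of the 6 samples alone and leaving out each library. Scaling to Rpph1 was added after seeing the data.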

Additional observations from a re-analysis of the deposited data

How the results depend on the processing

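The number of clustered histone genes called ranged from 62 to 63 across ages when each library was left out in turn. It ranged from 26 (without E10.5 replicate 2) to 62 for E18.5 against E10.5 and from 50 to 59 for P1 against E18.5. It ranged from 30 (without P1 replicate 1) to 52 for 1W against P1, from 42 (without 2W replicate 3) to 59 for 2W against 1W and from 52 to 59 for 8W against P1. The p of each share was 1e-05 throughout. With only the 6 samples compared, the count was 28 for E18.5 against E10.5 and 21 for 2W against 1W, in a fit with fewer samples. Scaled to Rn7sk, it was 31 for 2W against 1W, and scaled to Rpph1, an alternative chosen after seeing the data, 40. The other counts under RLE factors, library size alone, Rn7sk as covariate, both filters and DESeq2 stayed within 1.5 times. A pair of changes reversed. From E10.5 to E18.5 Hist3h2a had a log2 change of 0.03 without E10.5 replicate 2, its range over libraries left out being -0.82 to 0.03, and with library size alone Hist2h2be changed by -0.72 from P1 to 8W (adjusted p = 3.5e-06). The cause was not tested. Library size alone moved the median of all genes from P1 to 8W to -0.88. There were 150 named changes, not all of them called in the main fit. Of these, 28 lost their call with only the 6 samples compared, where 147 were tested. A further count was 23 when scaled to Rn7sk, 22 when scaled to Rpph1 and 16 without E10.5 replicate 2. The replicate numbers were not taken to pair the libraries, since 25 of 135 pairs of same-numbered libraries had correlated deviations over 0.1 (range -0.19 to 0.21). Replicate 2 was nevertheless the highest library for most of the histone genes at 7 of 10 ages. With the replicate block the counts were 63, 56, 57, 50, 56 and 58 in the order above. Depth limits the lowest genes, such as Hist1h1t with 2 counts at 8W, and reads divided among near-identical copies limit single genes of most of the set.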
